A study of Mus musculus with 22 samples.

Results

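The RAC and actin genes that blood cells use beside broadly expressed relatives, 10 in number, were followed through the endothelial to haematopoietic transition: *Rac2*, *Rhoh*, *Was*, *Coro1a*, *Vav1*, *Dock2*, *Arhgdib*, *Lcp1*, *Fermt3* and *Hcls1*. They were chosen by name, with earlier results of these data known, and all 10 were found among the 24454 gene symbols of the raw count table. The 22 RNA-seq libraries each came from 25 VE-Cad+ cells sorted from the aorta-gonad-mesonephros (AGM), the embryonic region where blood stem cells emerge, of C57BL/6 mouse embryos. CD44Neg cells, labelled endothelial, gave 10 libraries (3 from E11, 3 from E10, 4 from E9.5). CD44LoKitNeg cells, labelled hemogenic endothelial, gave 6 (3, 2 and 1 in the same order). CD44LoKitPos cells, labelled pre-HSPC, gave 3 (1 at E9.5 and 2 at E10), and CD44High cells, labelled HSPC, gave 3, all at E11. CD44LoKitPos and CD44High share no stage, so that population and stage cannot be told apart between them. No treatment or mutant allele was labelled in any group. The sort itself defines the populations, so each library is a mixture of 25 cells, and fewer cells of a type and less RNA per cell cannot be told apart. A numeric code that ends each sample description changes with the stage, so that stage and whatever the code stands for cannot be told apart either.

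RAC proteins are small GTPases that switch on actin polymerisation when they bind GTP. Exchange factors of the VAV and DOCK families load them with GTP, and RhoGDI proteins hold them inactive in the cytosol. Downstream, WASP proteins activate the ARP2/3 complex, which nucleates branched actin, while coronins, cortactin-type proteins and plastins remodel, stabilise and bundle the filaments, and kindlins couple integrins to them. Most of these families hold 1 member that is typical of blood cells beside relatives that are used widely, and loss of the blood member is known to impair the migration and activation of leukocytes. RHOH lacks GTPase activity and acts in lymphocytes as an atypical, constitutively GTP-bound protein.

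Between 3912350 and 8657546 reads were counted per library. Levels are counts relative to the library total (CPM) after scaling by edgeR's TMM method, written as normalized CPM. Where a library had no read of a gene, 3 counts were set as its upper limit, or 0.353 to 0.793 normalized CPM, for counting error alone. Libraries sharing a population and a stage, 20 pairs, differed well beyond sampling noise (up to 85.2 in chi-square per degree of freedom), and errors are therefore SDs between libraries. Nothing in the labels ties a library to its own embryo or litter, so p-values measure only the spread between these samples, which may be technical. The labels were set against marker genes. The endothelial markers summed to 3985 to 7145 normalized CPM in CD44Neg, 4386 to 10878 in CD44LoKitNeg, 847 to 2196 in CD44LoKitPos and 17.1 to 77.8 in CD44High. *Cdh5*, the gene of the VE-Cad protein used for the sort, was at 0 counts in all 3 CD44High libraries. *Ptprc*, the gene of the leukocyte antigen CD45, was at 0 in every CD44Neg library, reached 1 count in 1 CD44LoKitNeg library, and lay at 29.3 to 110.8 normalized CPM in CD44LoKitPos and 366 to 435 in CD44High.

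CD44High stood apart from the other populations in its myeloid markers. All 14 macrophage markers were detected there, summing to 4709, 7027 and 7416 normalized CPM, against 242 to 280 in CD44LoKitPos, 0 to 84.5 in CD44LoKitNeg and 3.19 to 24.6 in CD44Neg. *C1qa*, *C1qb*, *C1qc*, *Adgre1* and *Ctss* of this list were at 0 in the other 19 libraries. Other markers of the list were counted earlier. *Csf1r* was at 6.40 ± 4.34 normalized CPM in CD44LoKitPos (SD, n = 3), higher than in CD44LoKitNeg and CD44Neg (adjusted p = 1.9e-04 and 2.2e-05), and *Lyz2* was at 182 ± 33.4, higher than in CD44Neg (adjusted p = 5.7e-05). Of 7 granulocyte markers, 6 were detected in CD44High, and *S100a8* was at 6336 normalized CPM in CD44High replicate 20, 1852 in replicate 22 and 0 in replicate 21. Erythroid markers summed to 58.1 to 286 in CD44High and to at most 62.5 elsewhere, and lymphoid markers to at most 4.44 anywhere. Megakaryocyte markers reached 1249 in CD44LoKitNeg, mast cell markers 146 and mesenchymal markers 205 in CD44High, and neural markers 116 in CD44Neg. Blood stem and progenitor markers summed to 21.3 to 97.8 in CD44Neg, 57.5 to 367 in CD44LoKitNeg, 599 to 1146 in CD44LoKitPos and 855 to 948 in CD44High. Macrophages and granulocytes are known to express most of the 10 genes, and the part of such cells in the CD44High values was not tested.

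**Figure D1:**
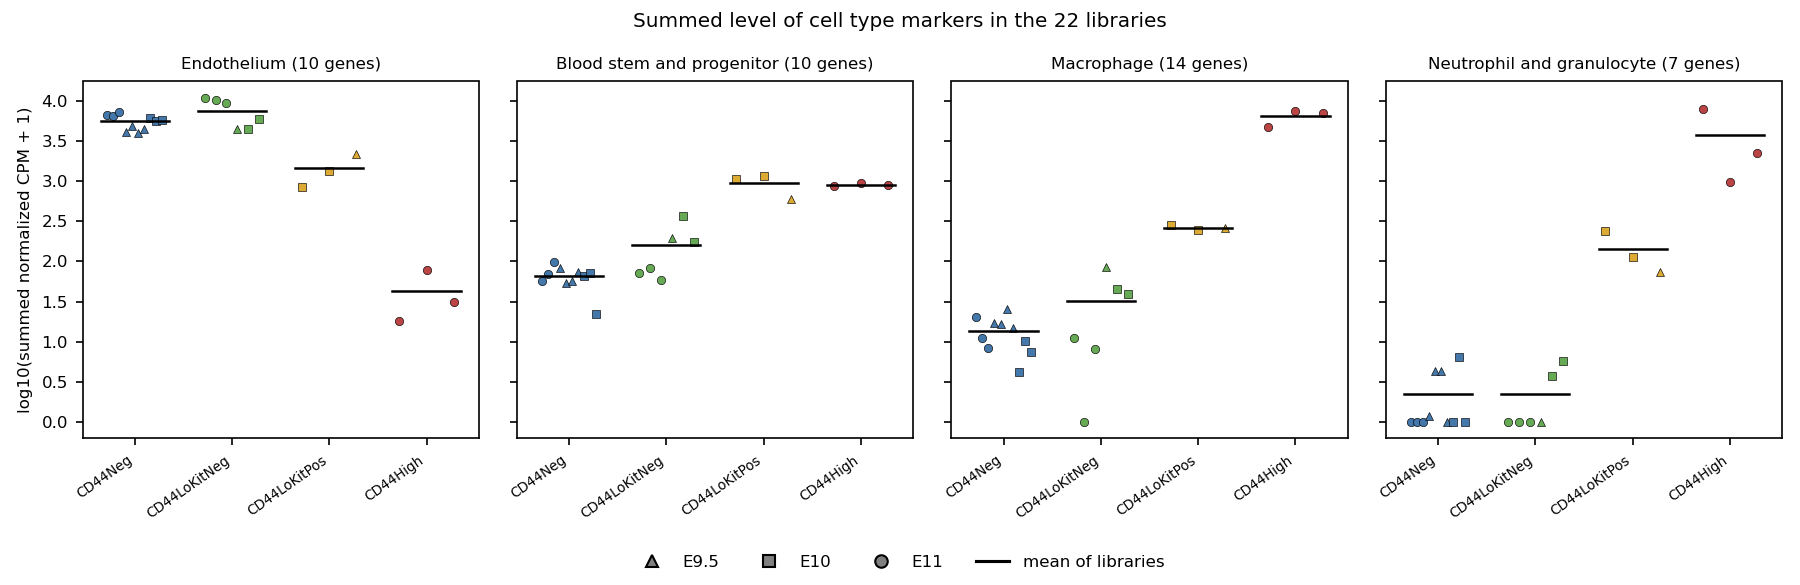
Summed level of cell type markers in each of the 22 libraries (y axis, log10 of the summed normalized CPM plus 1), by population, with the marker of each point giving the embryonic stage and the line the mean. Macrophage markers sum to 4709 to 7416 normalized CPM in CD44High and to at most 280 elsewhere, while endothelial markers fall to 17.1 to 77.8 in CD44High.

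The regulatory sequence at the start of these genes is shown for 5 of them because most of these genes were higher in the same populations. RefSeq promoters (GRCm38.p6, 250 bases before to 50 after the start) were matched for 9 of the 10 genes, with 13 promoters in all. *Rac2* had none in the table. Both strands were searched for GGAAGT, a core bound by ETS factors such as PU.1, for its longer form GAGGAAGT, which contains it, for TGTGGT, bound by RUNX factors, and for AGATAA, bound by GATA factors. GGAAGT was found in promoters of 6 genes (*Arhgdib*, *Dock2*, *Hcls1*, *Lcp1*, *Vav1* and *Was*), in 6 of the 13 promoters, and in 23.8% of all 32851 promoters. GAGGAAGT was found in *Vav1* alone, in 1 of the 13 promoters, and in 3.20% of all promoters. TGTGGT was found in 3 genes (*Arhgdib*, *Fermt3* and *Was*), in 3 of the 13 promoters, and in 16.8% of all promoters. AGATAA was found in *Arhgdib*, in 1 of the 13, and in 11.2% of all promoters. Neither promoter of *Coro1a* nor that of *Rhoh* held any of these letters. The lines below give 100 bases before to 20 after the start, 5′ to 3′ on the gene's strand, with GGAAGT and TGTGGT, or their reverse complements, in capitals. Only promoters that hold at least 1 of these are among them. *Was* holds GGAAGT at the start, its reverse complement and TGTGGT, *Vav1* and *Dock2* hold GGAAGT next to the start, *Hcls1* holds it farther upstream, and *Fermt3* holds TGTGGT in 2 places.
Was, chrX:8090472-8090591, minus strand: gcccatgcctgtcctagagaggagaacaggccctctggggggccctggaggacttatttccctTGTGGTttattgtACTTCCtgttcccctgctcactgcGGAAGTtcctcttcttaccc
Vav1, chr17:57279000-57279119, plus strand: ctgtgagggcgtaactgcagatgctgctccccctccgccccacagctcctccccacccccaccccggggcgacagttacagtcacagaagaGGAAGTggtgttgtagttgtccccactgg
Dock2, chr11:34783886-34784005, minus strand: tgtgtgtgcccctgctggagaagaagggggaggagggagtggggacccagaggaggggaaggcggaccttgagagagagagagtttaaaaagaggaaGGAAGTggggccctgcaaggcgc
Hcls1, chr16:36934883-36935002, plus strand: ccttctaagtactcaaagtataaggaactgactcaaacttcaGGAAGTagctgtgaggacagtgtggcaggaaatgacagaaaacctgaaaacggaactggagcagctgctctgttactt
Fermt3, chr19:7019450-7019569, minus strand: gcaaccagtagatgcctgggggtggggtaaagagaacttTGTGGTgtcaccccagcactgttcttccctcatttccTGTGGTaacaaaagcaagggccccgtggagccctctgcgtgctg

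The 10 genes did not behave as 1 block. *Rac2*, *Was* and *Dock2* were at or near 0 in CD44Neg, whereas *Arhgdib* and *Lcp1* were well above the detection limit in every library of every population. The number of genes with at least 1 count was 3 to 7 of 10 per CD44Neg library, 5 to 7 in the 3 CD44LoKitNeg libraries at E11, and 7, 9 and 10 in those at E9.5 and E10. It was 10 in each CD44LoKitPos and CD44High library. The name of a blood-restricted set therefore did not hold for *Arhgdib* and *Lcp1*, and *Hcls1* and *Coro1a* were also counted in at least 9 of the 10 CD44Neg libraries.

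**Figure D2:**
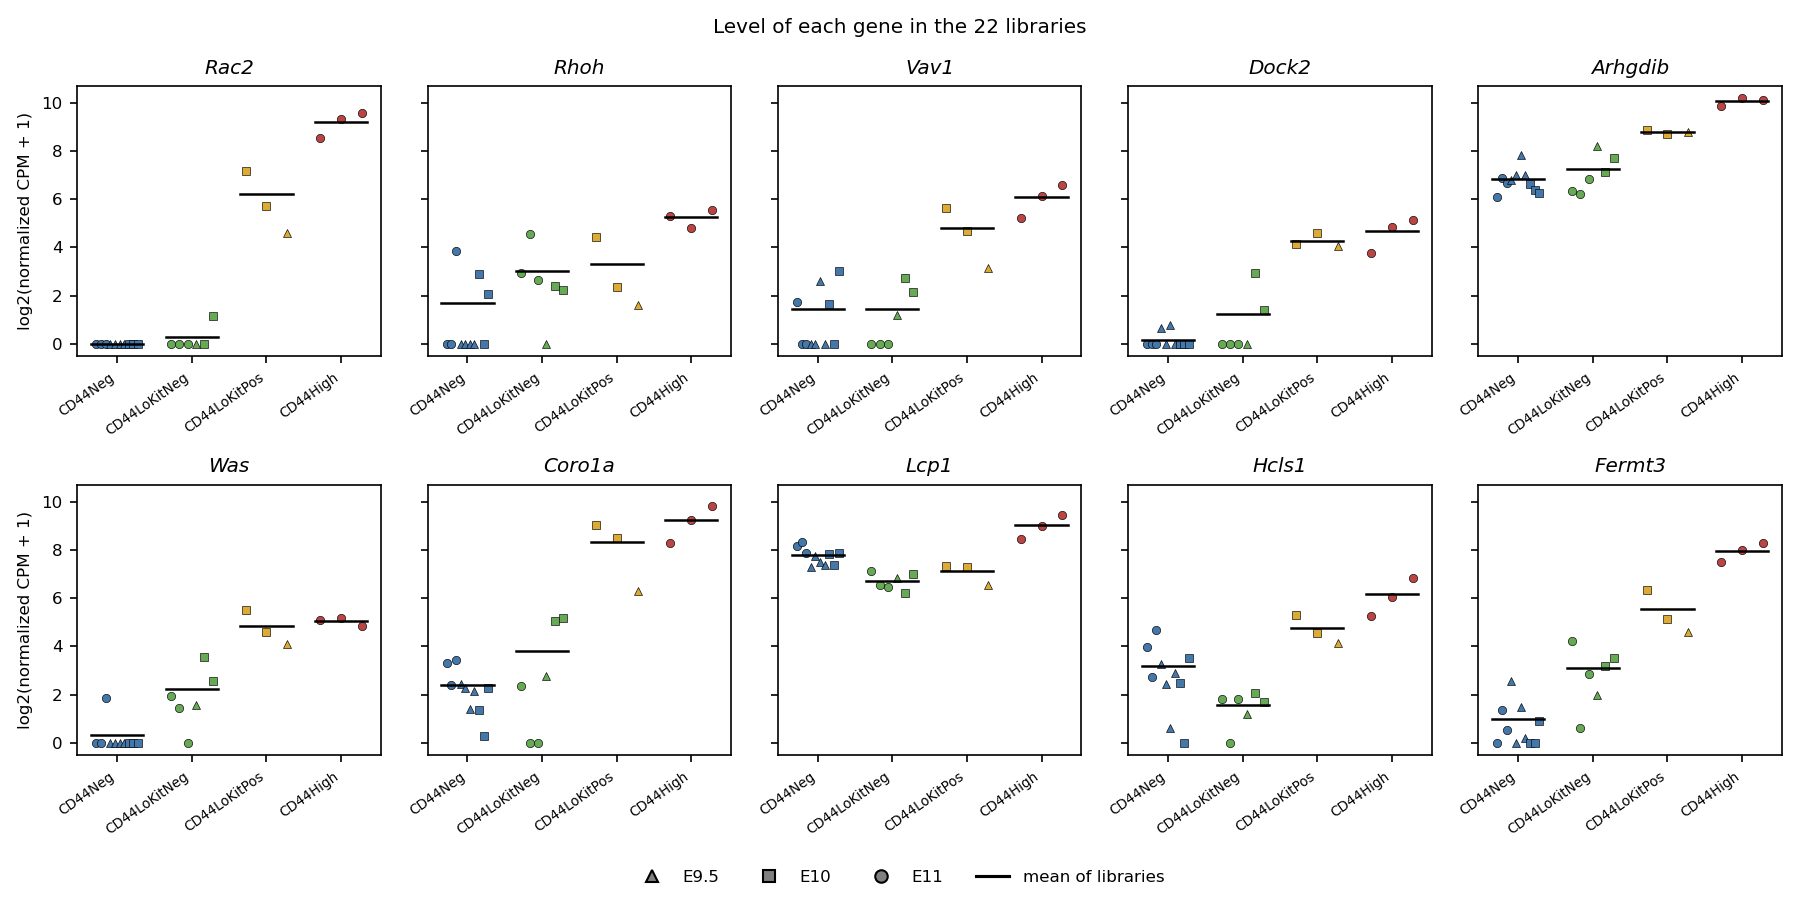
Level of each gene in each library (y axis, log2 of normalized CPM plus 1), by population, with the marker of each point giving the embryonic stage and the line the mean of the libraries. Rac2 is at 0 in all CD44Neg libraries and at 371 to 759 normalized CPM in CD44High, while Lcp1 is lowest in CD44LoKitNeg and Arhgdib is present throughout.

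*Rac2* encodes the RAC GTPase of blood cells (chr15:78559167-78572783, minus strand, mm10). It was at 0 counts in all 10 CD44Neg libraries and in 5 of 6 CD44LoKitNeg libraries, and CD44LoKitNeg replicate 16, at E10, held 9 counts (1.24 normalized CPM). The 3 CD44LoKitPos libraries held 141, 52.2 and 23.1 normalized CPM, and the 3 CD44High libraries 371, 643 and 759. No CD44LoKitPos library overlapped with CD44Neg or CD44LoKitNeg. Against the limit of 3 counts per CD44Neg library, *Rac2* was at least 91.0-fold higher in CD44LoKitPos and at least 746-fold higher in CD44High (adjusted p = 7.2e-06 and 2.8e-08, by the quasi-likelihood test of edgeR, Benjamini-Hochberg adjusted over 12949 genes, as for all comparisons of CD44LoKitPos and CD44High). Its log2 fold change between CD44LoKitPos and CD44LoKitNeg was 8.32 (SE 0.871, adjusted p = 9.7e-05), which rests on the 9 counts of CD44LoKitNeg replicate 16, without which *Rac2* was at 0 in CD44LoKitNeg. Without CD44LoKitPos replicate 17 it was 7.35, and the bound in CD44LoKitPos against CD44Neg was 47.5-fold. The step from CD44LoKitPos to CD44High (3.05, SE 0.826, adjusted p = 0.0399) did not pass the threshold of 0.01, although the 3 libraries of each did not overlap.

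*Rhoh* (chr5:65861213-65896700, plus strand) was the least regular of the 10. It was counted in 3 of 10 CD44Neg libraries (13.3, 6.37 and 3.14 normalized CPM in replicates 3, 8 and 10) and in 5 of 6 CD44LoKitNeg libraries, where replicate 12 at E11 reached 22.3. CD44LoKitPos held 20.4, 4.14 and 2.10, and CD44High 38.5, 27.3 and 45.7, the 3 highest values of the series. CD44Neg, CD44LoKitNeg and CD44LoKitPos overlapped with each other. No comparison of *Rhoh* passed the threshold, and the difference between CD44High and CD44Neg (4.03, SE 1.34, adjusted p = 0.0317) passed without CD44Neg replicate 3 (5.11, adjusted p = 0.00771). Its difference between CD44LoKitPos and CD44LoKitNeg (0.36, SE 1.59) took either sign when single libraries were left out (−1.17 to 1.14).

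The 2 exchange factors of the set had low levels. *Vav1* (chr17:57279100-57328031, plus strand), which acts downstream of tyrosine kinases, was at 0 in 6 of 10 CD44Neg libraries and up to 7.18 normalized CPM in the others. In CD44LoKitNeg it was at 0 in all 3 E11 libraries and at 1.29, 5.64 and 3.45 in the 3 earlier ones. CD44LoKitPos held 49.0, 24.3 and 7.80, and CD44High 36.5, 68.6 and 95.8, so these populations overlapped with each other but not with the endothelial ones. *Vav1* rose in CD44High against CD44Neg (5.33, SE 1.24, adjusted p = 0.00245), a call lost without CD44High replicate 22 (4.91, adjusted p = 0.0165), with DESeq2's Wald test (5.34, adjusted p = 0.0258), and at E11 alone (6.53, adjusted p = 0.0217). Without CD44Neg replicate 10 the value was 5.96. In CD44High against CD44LoKitNeg (5.33, SE 1.50, adjusted p = 0.0102) it missed the threshold, but passed in 6 of 22 fits with 1 library left out (adjusted p down to 0.00868, without CD44LoKitNeg replicate 15). It also missed it in CD44LoKitPos against CD44Neg (4.01, SE 1.22, adjusted p = 0.0453).

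*Dock2* (chr11:34226815-34783892, minus strand), an exchange factor for RAC proteins in leukocytes, was at 0 in 8 of 10 CD44Neg libraries and at 0.564 and 0.734 normalized CPM in replicates 4 and 6, which is 3 and 4 counts. It was at 0 in 4 of 6 CD44LoKitNeg libraries and at 6.66 and 1.66 in the 2 from E10. CD44LoKitPos held 16.7, 23.1 and 15.6, and CD44High 12.7, 27.8 and 34.4. *Dock2* rose in CD44LoKitPos (6.89, SE 1.33, adjusted p = 0.00189) and in CD44High (7.35, SE 1.35, adjusted p = 2.4e-04) against CD44Neg, the first not without CD44LoKitPos replicate 18 (adjusted p = 0.0104). Without CD44Neg replicate 6, which held 4 counts, they were 7.74 and 8.20. CD44LoKitPos and CD44High overlapped (0.46, SE 1.66, adjusted p = 0.956).

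*Arhgdib* encodes the RhoGDI of blood cells, which keeps small GTPases soluble (chr6:136923655-136941899, minus strand). It was counted in every library, from 67.9 to 229 normalized CPM in CD44Neg (median 106), at 80.2, 73.2 and 112.9 in CD44LoKitNeg at E11, and at 293, 138 and 208 in CD44LoKitNeg before E11. CD44LoKitPos held 468, 416 and 441, and CD44High 923, 1157 and 1105. All CD44LoKitPos libraries lay above all endothelial ones, and all CD44High libraries above all CD44LoKitPos ones. *Arhgdib* rose in CD44LoKitPos against CD44LoKitNeg (1.58, SE 0.354, adjusted p = 0.00589), CD44LoKitPos against CD44Neg (1.96, SE 0.312, adjusted p = 2.9e-04) and CD44High against CD44Neg (3.24, SE 0.306, adjusted p = 4.1e-08). The first of these calls was lost in 9 of 22 fits that left out 1 library (adjusted p up to 0.0444, without CD44LoKitPos replicate 17) and among E9.5 and E10 libraries alone (1.09, adjusted p = 0.0727). The step from CD44LoKitPos to CD44High (1.28, SE 0.431, adjusted p = 0.0853) did not pass.

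*Was* encodes WASP, the activator of ARP2/3 that is mutated in Wiskott-Aldrich syndrome (chrX:8081453-8090498, minus strand). It was at 0 in 9 of 10 CD44Neg libraries and at 2.65 normalized CPM in CD44Neg replicate 3. In CD44LoKitNeg it was at 2.84, 1.72 and 0 at E11 and at 2.00, 10.9 and 4.97 in the earlier libraries. CD44LoKitPos held 43.9, 23.4 and 16.2, and CD44High 32.8, 35.2 and 28.1, so that the CD44High libraries lay within the range of CD44LoKitPos. *Was* rose in CD44LoKitPos (6.49, SE 1.15, adjusted p = 9.0e-04) and CD44High (6.70, SE 1.16, adjusted p = 1.3e-04) against CD44Neg. At E11 alone the second was not called (5.11, adjusted p = 0.0285). These folds rest on the 17 counts in CD44Neg replicate 3. Without it, *Was* was at 0 in CD44Neg and at least 35.1-fold higher in CD44LoKitPos and 40.4-fold higher in CD44High (adjusted p = 1.1e-04 and 1.1e-05). Its difference between CD44High and CD44LoKitPos (0.21, SE 1.47, adjusted p = 0.985) changed sign without CD44LoKitPos replicate 19.

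*Coro1a*, coronin-1A, binds filamentous actin and ARP2/3 in leukocytes (chr7:126699773-126707787, minus strand). CD44Neg libraries held 0.222 to 9.83 normalized CPM (median 3.80). In CD44LoKitNeg, the E11 libraries held 4.06, 0 and 0, and the earlier ones 5.88, 32.5 and 34.9. CD44LoKitPos held 515, 359 and 77.1, and CD44High 307, 605 and 901. The lowest CD44LoKitPos library, from E9.5, lay above the highest endothelial one, while CD44LoKitPos and CD44High overlapped (0.95, SE 1.11, adjusted p = 0.762). *Coro1a* rose in CD44LoKitPos against CD44Neg (6.24, SE 0.853, adjusted p = 5.7e-05) and against CD44LoKitNeg (4.66, SE 0.976, adjusted p = 0.00401). The second call was lost without CD44LoKitNeg replicate 11, CD44LoKitPos replicate 17 or CD44LoKitPos replicate 18 (adjusted p up to 0.0360), and within E9.5 and E10 (3.74, adjusted p = 0.0236).

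*Lcp1*, L-plastin, bundles actin filaments in leukocytes (chr14:75131101-75230842, plus strand). CD44Neg libraries held 155 to 319 normalized CPM (median 218), and CD44LoKitNeg libraries 138, 91.2, 87.3, 113, 72.3 and 126, all below the lowest CD44Neg library. *Lcp1* fell by 1.07 on the log2 scale in CD44LoKitNeg (SE 0.195, adjusted p = 6.7e-04, edgeR's quasi-likelihood test over 11022 genes). CD44LoKitPos held 161, 155 and 93.5, overlapping with CD44LoKitNeg (0.41, SE 0.270, adjusted p = 0.347) and with CD44Neg. CD44High held 349, 504 and 705, above every other library, and *Lcp1* was the only one of the 10 to pass in CD44High against CD44LoKitPos (1.95, SE 0.327, adjusted p = 3.4e-04). These populations share no stage, so that population and stage cannot be told apart in this step. Against CD44Neg the rise was smaller (1.28, SE 0.238, adjusted p = 2.7e-04), and it was not called without CD44High replicate 22 (0.93, adjusted p = 0.0145) or at E11 alone (0.92, adjusted p = 0.0298).

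*Hcls1* encodes HS1, the cortactin relative of blood cells (chr16:36934983-36963212, plus strand). CD44Neg libraries held 0 to 24.6 normalized CPM (median 6.01), CD44LoKitNeg 0 to 3.25 (median 2.35), CD44LoKitPos 38.9, 22.4 and 16.5, and CD44High 37.5, 65.1 and 112. Like *Lcp1*, its mean was lowest in CD44LoKitNeg, but CD44Neg and CD44LoKitNeg overlapped and the difference was not called (−2.03, SE 0.975, adjusted p = 0.154). *Hcls1* rose in CD44High against CD44LoKitNeg (5.23, SE 0.972, adjusted p = 2.9e-04, and 4.64 without CD44High replicate 22) and against CD44Neg (3.19, SE 0.778, adjusted p = 0.00373). The call against CD44Neg was lost without CD44High replicate 21 (adjusted p = 0.0149) or replicate 22 (adjusted p = 0.0499), and at E11 alone (2.29, adjusted p = 0.156). CD44LoKitPos against CD44LoKitNeg missed the threshold (3.74, SE 0.933, adjusted p = 0.0112).

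*Fermt3*, kindlin-3, activates integrins in blood cells and platelets (chr19:6998958-7019469, minus strand). CD44Neg libraries held 0 to 4.88 normalized CPM (median 0.305). CD44LoKitNeg held 17.7, 0.528 and 6.25 at E11 and 2.94, 8.20 and 10.3 before, CD44LoKitPos 80.2, 33.8 and 23.1, and CD44High 179, 257 and 313. The populations were ordered in their means, with overlap only between CD44Neg and CD44LoKitNeg. *Fermt3* was at a log2 fold change of 2.92 in CD44LoKitNeg against CD44Neg (SE 1.05, adjusted p = 0.0558), which passed in the fit of all 22 libraries (2.88, adjusted p = 0.00593) and not in that of the 16. It rose in CD44LoKitPos (5.49, SE 0.777, adjusted p = 8.2e-05) and CD44High (7.95, SE 0.811, adjusted p = 1.2e-07) against CD44Neg. Without CD44Neg replicate 4 these were 6.29 and 8.75, and without CD44LoKitPos replicate 17 the first was 4.80. Exons of *Fermt3* overlap those of *Trpt1* on the other strand, and the strand setting of the counting is not given in the sources used here. *Trpt1* was at 0 to 8.97 normalized CPM in the endothelial libraries and 0 to 2.89 in the others.

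The calls were also counted over the set. The set was chosen with earlier results of these data known, so its counts beside the shares of all genes are a description and no independent test. In CD44LoKitNeg against CD44Neg, 7 of the 10 genes passed the filter on low counts, and *Rac2*, *Was* and *Dock2* did not. With edgeR, 0 of them were called higher, against 4.94% of all 11022 genes, and 1 was called lower (*Lcp1*), against 5.23%. DESeq2's Wald test called 0 higher as well, and 1 gene (*Fermt3*) was higher at an unadjusted p under 0.05, as were 15.9% of all genes. The median log2 fold change of the 7 was 0.38, against 0.0050 over all genes, and it pooled stages that differed. At E9.5 and E10 the median was 0.93 over 9 genes, with *Was* at its lower bound, and at E11 it was −0.12 over 7, leaving out genes at or under the limit in both populations. In CD44LoKitPos against CD44LoKitNeg, 3 of 10 were called higher (*Rac2*, *Coro1a* and *Arhgdib*), against 2.55% of 12949 genes, and the median was 3.33. Within E9.5 and E10 this count was 1 (*Rac2*), as it was without CD44LoKitNeg replicate 11, CD44LoKitPos replicate 17 or CD44LoKitPos replicate 18. The calls over all genes, in either direction, went from 552 to 64 within these stages, and to 342, 65 and 160 without those libraries. In CD44LoKitPos against CD44Neg, 6 were called higher (*Rac2*, *Was*, *Coro1a*, *Dock2*, *Arhgdib* and *Fermt3*), against 2.08%, with a median of 4.75. *Rac2* and *Dock2* passed the filter of the fit of 22 libraries only through CD44LoKitPos and CD44High, where they were high. Their calls in these populations against the endothelial ones, here and below, could therefore hardly have gone the other way. These comparisons share libraries, so their counts are not independent of each other.

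CD44High against CD44LoKitPos called 1 of 10 higher, against 0.780% of all genes, and the median of the 10 was 1.41. The populations share no stage, so that this comparison cannot tell population from stage. CD44High against CD44LoKitNeg called 6 (*Rac2*, *Coro1a*, *Arhgdib*, *Lcp1*, *Fermt3* and *Hcls1*), against 7.79%, with a median of 4.65. CD44High against CD44Neg called 9, all but *Rhoh*, against 7.14%, with a median of 6.02. At E11 alone the last count was 5, since *Was*, *Vav1*, *Lcp1* and *Hcls1* no longer passed, and the calls over all genes, in either direction, went from 1864 to 1285. The summed macrophage markers were higher in CD44High in each of these comparisons as well.

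**Figure D3:**
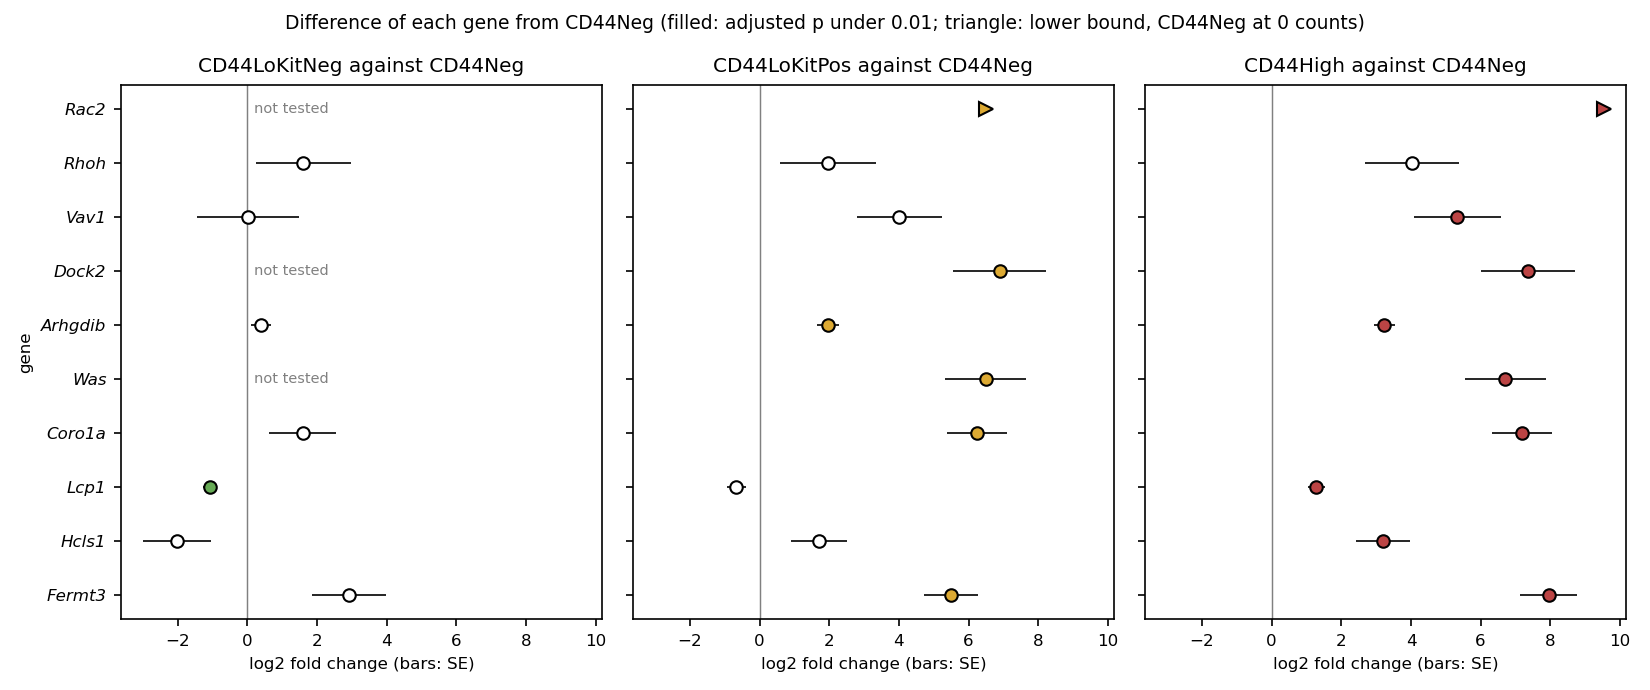
Log2 fold change of each gene against CD44Neg in CD44LoKitNeg, CD44LoKitPos and CD44High, with bars for the SE and filled points for an adjusted p under 0.01. Triangles give the lower bound for Rac2, which had 0 counts in CD44Neg. Lcp1 is the only gene called in CD44LoKitNeg, where it is lower, while 6 genes are called in CD44LoKitPos and 9 in CD44High.

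The CD44LoKitNeg libraries were also compared within stage classes, E9.5 and E10 together or E11. The first class held 1 library of E9.5 and 2 of E10 in CD44LoKitNeg, against 4 and 3 in CD44Neg. At E9.5 and E10, 2 genes were called higher than in CD44Neg of those stages, against 1.30% of all genes. *Was* was at least 8.41-fold higher (5.97 ± 4.55 normalized CPM, SD, n = 3, against 0 in all 7 CD44Neg libraries, adjusted p = 0.00426). *Coro1a* was at 24.4 ± 16.1 against 2.71 ± 1.56 normalized CPM (log2 fold change 3.11, SE 0.705, adjusted p = 0.00988). At E10 it was at 33.7 ± 1.73 (n = 2) against 1.88 ± 1.81 (n = 3). In the 1 CD44LoKitNeg library of E9.5 it was at 5.88, against 3.34 ± 1.21 in CD44Neg (n = 4). *Was* was at 7.95 ± 4.22 in CD44LoKitNeg at E10 and at 2.00 in the library of E9.5. The call of *Coro1a* was lost with DESeq2's Wald test (3.20, adjusted p = 0.0102) and in 14 of 22 fits that left out 1 library (adjusted p up to 0.0562, without CD44LoKitNeg replicate 16). That of *Was* was lost without CD44LoKitNeg replicate 15 (at least 4.91-fold, adjusted p = 0.0221) or replicate 16 (adjusted p = 0.0137).

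At E11, the same comparison called 1 gene lower (*Lcp1*), against 2.20% of all genes. *Lcp1* was at 106 ± 28.4 against 280 ± 43.1 normalized CPM (log2 fold change −1.42, SE 0.293, adjusted p = 0.00430). This call was lost without CD44Neg replicate 1, CD44Neg replicate 2, CD44LoKitNeg replicate 12 or CD44LoKitNeg replicate 13 (adjusted p up to 0.0302). *Coro1a* was at 1.35 ± 2.34 in CD44LoKitNeg and at 7.69 ± 3.00 in CD44Neg (−2.47, SE 0.990, adjusted p = 0.137). Without CD44LoKitNeg replicate 11 it was at 0 in CD44LoKitNeg and was called lower (adjusted p = 0.00746). *Rac2* and *Dock2* were at 0 in all 6 E11 libraries of both populations.

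Within CD44LoKitNeg, E11 against the earlier stages called 0 of the 10 with edgeR, against 1.20% of all genes in either direction, while DESeq2's Wald test called 1 lower (*Coro1a*). At an unadjusted p under 0.05, 4 of the 10 were lower at E11, where 12.4% of all genes were, namely *Coro1a* (−4.11, SE 0.995, adjusted p = 0.0206), *Arhgdib* (−1.25, SE 0.342, adjusted p = 0.0402), *Dock2* and *Vav1*. *Coro1a* was called without CD44LoKitNeg replicate 11 (adjusted p = 0.00347). *Dock2* and *Vav1* were at 0 at E11. Before E11, *Vav1* was at least 7.38-fold and *Dock2* at least 5.92-fold above the limit of 3 counts, and without CD44LoKitNeg replicate 15 the bound for *Dock2* was 1.77-fold. An interaction of population and stage was called for 0 of the 10, against 0.0849% of all genes, and DESeq2's Wald test called 0 as well. *Coro1a* (−5.59, SE 1.24, adjusted p = 0.0670) and *Was* (−7.39, SE 2.02, adjusted p = 0.180) had an unadjusted p under 0.05, as did 9.83% of all genes, and the value of *Was* was −1.94 without CD44Neg replicate 3. The interaction of *Coro1a* passed without CD44LoKitNeg replicate 11 (−11.6, adjusted p = 0.00810), the only E11 library of its population with counts of it.

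Other values also differed between these stages. *Runx1* was at 55.5, 132 and 45.7 normalized CPM in the earlier CD44LoKitNeg libraries (replicates 14 to 16) and at 0 in all 3 E11 ones. *Spi1*, the gene of PU.1, was at 5.06, 76.5 and 39.1 in the earlier ones and at 1.85 to 4.22 at E11, and *Gfi1* was at 36.2, 39.6 and 11.5 against at most 3.96. *Coro1a*, *Was* and *Dock2* were highest in replicates 15 and 16, the 2 with the most *Spi1*, whereas *Arhgdib* was highest in replicate 14. *Fermt3* (17.7 in replicate 11) and *Rhoh* (22.3 in replicate 12) were highest in E11 libraries without *Runx1*. The endothelial markers summed to 9394 to 10878 at E11 and 4386 to 5896 before, and *Rn45s*, a ribosomal RNA, took 17.4% to 19.2% of counts at E11 and 7.29% to 11.1% before. The part of these differences in the levels was not tested. Macrophage markers summed to 38.6 to 84.5 in the earlier libraries and to 0 to 10.0 at E11, with *C1qa*, *C1qb*, *C1qc*, *Adgre1*, *Aif1* and *Ctss* at 0 in all 6. *Lyz2* (23.5 ± 5.12, SD, n = 3) and *Fcgr3* (7.67 ± 0.880) were counted in all 3 earlier libraries, were at 0 in all 3 at E11 and were called lower there (adjusted p = 0.00239 and 0.00883), and *Lyz2* was also called higher than in CD44Neg at E9.5 and E10 (0.916 ± 1.91, n = 7, adjusted p = 0.00192). The part of these markers in the levels of *Coro1a* and *Was* was not tested. The blood cell antigen gene *Ptprc* was at 0 in the earlier libraries.

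The libraries of the later populations also differed in level across the set. CD44LoKitPos replicate 17, at E10, was highest of its 3 libraries for 9 of the 10 genes, and replicate 19, at E9.5, lowest for 9. The endothelial markers ran the other way, at 847 normalized CPM in replicate 17 and 2196 in replicate 19. The megakaryocyte markers summed to 114 to 360 over the 3 libraries. The granulocyte markers summed to 236, 111 and 72.3 in replicates 17, 18 and 19, with *S100a8*, *S100a9* and *Ctsg* at 0 in all 3. *Mpo* (169, 80.1 and 37.1) and *Prtn3* (40.7 ± 16.7) were called higher in CD44LoKitPos against CD44LoKitNeg (adjusted p = 7.7e-04 and 0.00272) and against CD44Neg (adjusted p = 1.4e-04 and 6.3e-05). The part of these markers in the levels was not tested. In CD44High, replicate 22 was highest for 8 genes and replicate 20 lowest for 8. Replicate 20 also had the lowest sum of macrophage markers (4709) and the highest sum of granulocyte markers (7919), while replicate 22 held 7027 and 2262. Replicate 21 had the highest macrophage sum (7416) and the lowest granulocyte sum (977) and was highest for 2 of the 10 genes.

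Levels of different genes were compared per kilobase of exon (GENCODE vM21 on GRCm38, which is mm10). In CD44High, *Arhgdib* led at 789 ± 91.1 normalized CPM per kb (SD, n = 3), followed by *Coro1a* at 316 ± 155 and *Rac2* at 195 ± 65.6, with *Dock2* lowest at 3.29 ± 1.47. In CD44LoKitPos, *Arhgdib* (328 ± 19.1) and *Coro1a* (166 ± 116) again led, *Lcp1* (32.5 ± 8.91) and *Rac2* (23.8 ± 20.3) lay within their spread of each other, and *Rhoh* was lowest (1.52 ± 1.72). In CD44Neg, *Arhgdib* (84.5 ± 33.9, n = 10) and *Lcp1* (51.5) stood above all others, the next being *Hcls1* at 3.97 ± 3.63.

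Each gene was set beside the relatives of broad expression listed for it. Of these 17 relatives, 15 passed the filter in the fit of 22 libraries. *Rac1*, the widely used RAC, was at 515 ± 169 normalized CPM in CD44Neg, 748 ± 187 in CD44LoKitNeg, 541 ± 168 in CD44LoKitPos and 608 ± 55.7 in CD44High (CD44High against CD44Neg 0.26, SE 0.268, adjusted p = 0.551), and *Rac3* was at 0 in the last 2. *Rhoa* lay between 200.1 and 314 in the population means. *Rhof* did not follow the pattern of a broad relative and rose in CD44LoKitPos (24.1 ± 7.65 against 0.115 ± 0.251 in CD44Neg, log2 fold change 7.56, adjusted p = 2.7e-04) and in CD44High (6.38 ± 7.21, adjusted p = 7.3e-04).

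In CD44High against CD44Neg, 4 relatives fell. They were *Cttn*, cortactin and the relative of *Hcls1* (21.2 ± 8.58 against 105 ± 22.8 normalized CPM, −2.30, SE 0.338, adjusted p = 1.7e-05), *Dock1* (20.5 ± 6.38 against 117 ± 31.7, −2.49, SE 0.322, adjusted p = 3.3e-06), *Wasl*, which encodes N-WASP (13.2 ± 11.7 against 51.3 ± 17.8, −1.95, SE 0.451, adjusted p = 0.00234) and *Fermt2*, kindlin-2 (22.8 ± 27.1 against 251 ± 47.4, −3.45, SE 0.799, adjusted p = 0.00234). Of all genes tested, 7.25% were lower in this comparison. *Cttn* was already lower in CD44LoKitPos (35.5 ± 9.20, −1.57, SE 0.319, adjusted p = 0.00291). *Pls3*, the plastin of most tissues, was at 62.2 ± 68.9 against 220 ± 79.9 and was not called (−1.82, SE 0.574, adjusted p = 0.0231). *Arhgdia*, *Coro1b*, *Coro1c*, *Vav2*, *Vav3* and *Dock5* were not called in any comparison, and *Pls1* and *Fermt1* had means of at most 4.63.

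The balance within each family was described as the share of the blood-type gene in the summed level per exon length of itself and its listed relatives, for 9 families (*Rhoh* and its relatives are not counterparts of this kind and were left out). These shares were chosen after the values were seen and have no test. *Rac2* took 0% of the RAC level in CD44Neg, 14.3 ± 9.23% in CD44LoKitPos and 56.4 ± 7.02% in CD44High. *Was* took 0.897 ± 2.84%, 10.3 ± 7.31%, 51.5 ± 20.5% and 85.8 ± 10.4% in CD44Neg, CD44LoKitNeg, CD44LoKitPos and CD44High. *Fermt3* took 0.477 ± 0.714%, 8.87 ± 8.16%, 53.2 ± 33.0% and 93.2 ± 6.95%. No change of *Rac1* was called where the share of *Rac2* went up, whereas in CD44High against CD44Neg *Wasl* and *Fermt2* fell and *Was* and *Fermt3* rose.

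In CD44High the blood-type gene took over 50% of its family in every library for *Was*, *Coro1a*, *Vav1*, *Arhgdib*, *Lcp1*, *Hcls1* and *Fermt3*. For *Arhgdib* this held outside CD44High too, in all 3 CD44LoKitPos libraries, in 3 CD44LoKitNeg libraries, all before E11, and in 1 CD44Neg library, and its share ran from 18.5% to 64.1% in CD44Neg and from 32.1% to 78.3% in CD44LoKitNeg. *Lcp1* was over 50% in 4 of 10 CD44Neg libraries. *Rac2* ranged from 48.6% to 62.4% and *Dock2* from 29.2% to 59.7%. In CD44LoKitPos the share varied widely between libraries, from 17.5% to 82.8% for *Fermt3*, 19.8% to 69.2% for *Vav1* and 30.6% to 73.0% for *Coro1a*, with the lowest value of each in replicate 19. *Lcp1* took 46.5 ± 7.48% in CD44Neg and 27.5 ± 6.40% in CD44LoKitNeg, where the highest library (33.9%) lay below the lowest CD44Neg library (38.0%). *Hcls1* took 10.6 ± 8.91% in CD44Neg and 3.62 ± 2.30% in CD44LoKitNeg, with overlap.

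**Figure D4:**
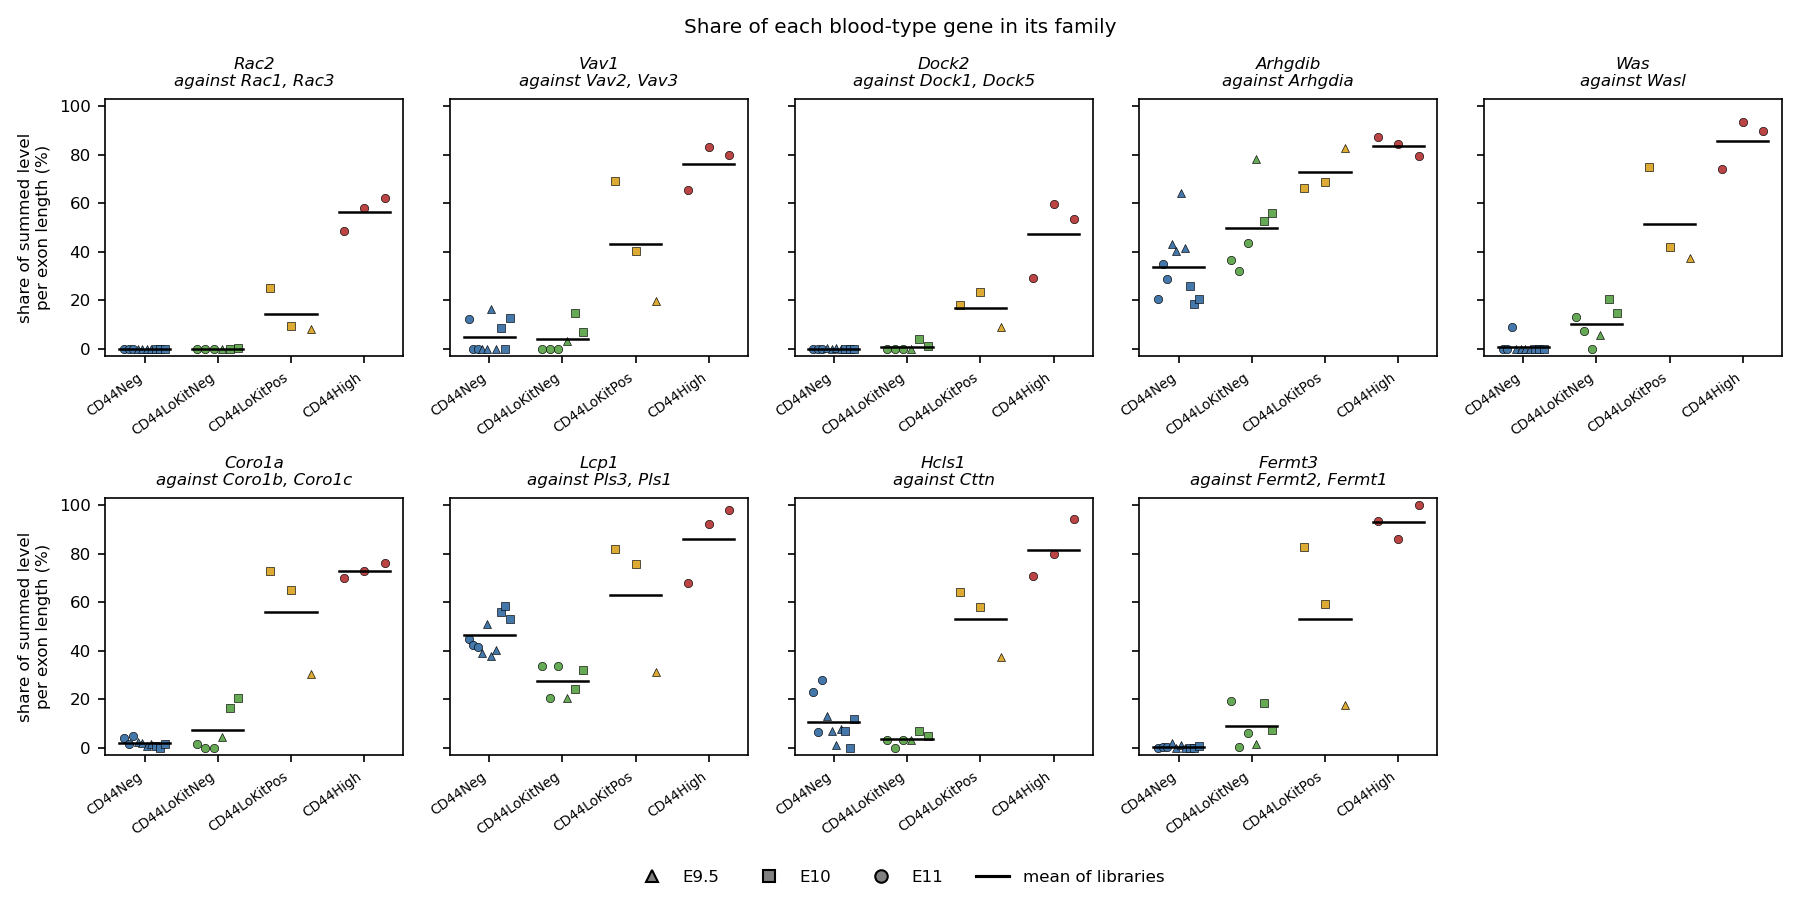
Share of each blood-type gene in the summed level per exon length of itself and the relatives named above each panel (y axis, percent), in each library by population, with the marker of each point giving the stage and the line the mean. The share of Was goes from a mean of 0.897% in CD44Neg to 85.8% in CD44High, while that of Lcp1 is lower in CD44LoKitNeg (27.5%) than in CD44Neg (46.5%).

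The wider pathway was taken from 3 lists, which were also chosen with earlier results of these data known. Of 40 other regulators of small GTPases and actin in blood cells, 7 rose and 1 fell in CD44LoKitPos against CD44LoKitNeg, 11 rose against CD44Neg, and 23 rose and 1 fell in CD44High against CD44Neg. Of all genes, 2.55% rose and 1.71% fell in the first of these comparisons, 2.08% rose in the second, and 7.14% rose and 7.25% fell in the last. The medians of the 40, with genes at 0 in the reference population set to their lower bound, were 1.28, 1.56 and 3.00 on the log2 scale. In CD44LoKitNeg against CD44Neg, 24 of them were tested, 2 were higher at an unadjusted p under 0.05 (15.9% of all genes were) with none called, and 1 fell (*Cotl1*, coactosin, −1.63, SE 0.357, adjusted p = 0.00298), against 4.94% of all genes higher and 5.23% lower. None of the 40 was called at E9.5 and E10 or at E11, where 2.20% and 2.89% of all genes were called in either direction. *Plek*, pleckstrin, was at 148 normalized CPM in CD44LoKitPos against 0.0230 in CD44LoKitNeg (adjusted p = 5.4e-05). *Rgs18* and *Cytip* were at 0 in all 16 endothelial libraries and at 51.6 and 31.7 in CD44LoKitPos, at least 101-fold and 61.9-fold above the limit in CD44LoKitNeg (adjusted p = 8.1e-05 and 5.1e-04). *Myo1f*, a class I myosin, was at 0 in CD44Neg and at least 15.2-fold higher in CD44LoKitPos (adjusted p = 1.3e-05). *Abi3*, which binds WAVE complexes, fell in CD44LoKitPos against CD44LoKitNeg (22.7 against 87.0, −1.91, SE 0.422, adjusted p = 0.00539).

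*Nckap1l*, the blood-type subunit HEM1 of the WAVE complex, was the only one of the 40 called higher in CD44High against CD44LoKitPos, against 0.780% of all genes (193 against 15.8 normalized CPM, 3.63, SE 0.631, adjusted p = 5.0e-04). It was at 0.0199 in CD44Neg. Its broad relative *Nckap1* rose in CD44LoKitNeg against CD44Neg (342 against 162, 1.05, SE 0.167, adjusted p = 2.1e-04) and fell in CD44High against CD44LoKitNeg (16.1, −4.36, SE 1.02, adjusted p = 0.00241). *Arhgap15*, which inactivates RAC, was at 102 in CD44High, at 1.07 in CD44LoKitPos and at 0 in the endothelial libraries (adjusted p = 1.0e-04 against CD44Neg). *Cnn2*, calponin 2, fell in CD44High against CD44Neg (147 against 525, −1.82, SE 0.313, adjusted p = 1.2e-04).

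The ARP2/3 and WAVE subunits, which *Was* and RAC act on, were also counted. Of 17 listed, 16 were tested in the fit of 22 libraries. In CD44LoKitPos against CD44Neg, edgeR called none higher (3 at an unadjusted p under 0.05, where 9.96% of all genes were) and 1 lower, against 1.41% of all genes (*Cyfip1*, 115 against 295 normalized CPM, −1.36, SE 0.253, adjusted p = 0.00128). In CD44High 3 rose and 1 fell against CD44Neg, where 7.14% of all genes were higher and 7.25% lower. *Arpc2* was at 1060 against 564 (0.92, SE 0.192, adjusted p = 9.0e-04), *Actr3* at 853 against 473 (0.86, SE 0.204, adjusted p = 0.00277), *Cyfip2* at 10.3 against 0.350 (4.79, SE 1.29, adjusted p = 0.00796) and *Arpc1a* at 60.8 against 109 (−0.83, SE 0.218, adjusted p = 0.00664). In CD44LoKitNeg against CD44Neg, 15 were tested, 2 rose (*Abi1* and *Nckap1*) and 3 fell (*Arpc3*, *Arpc5* and *Cyfip1*), where 4.94% of all genes were higher and 5.23% lower. At E9.5 and E10 only *Abi1* was called (1.85, SE 0.316, adjusted p = 0.00192), where 2.20% of all genes were called in either direction. None was called at E11, where 2.89% of all genes were.

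Of 18 integrin and receptor signalling genes, partners of *Fermt3* and *Vav1*, 10 were tested in CD44LoKitNeg against CD44Neg and 2 of them rose, against 4.94% of all genes. They were *Itga4*, an integrin subunit used for adhesion to VCAM1 (42.6 against 4.50 normalized CPM, 3.22, SE 0.814, adjusted p = 0.00825), and *Plcg2* (68.5 against 10.3, 2.72, SE 0.666, adjusted p = 0.00665). *Itga4* alone was called at E9.5 and E10 (adjusted p = 0.00909) and at E11 (adjusted p = 0.00292), where 1.30% and 0.687% of all genes were higher. *Plcg2* was called in neither (adjusted p = 0.0629 and 0.0915). In CD44LoKitPos against CD44Neg, 6 of 17 tested rose, against 2.08% of all genes. Among them were *Sla* and *Btk*, at 83.5 ± 61.1 and 29.2 ± 25.0 normalized CPM (SD, n = 3), which were at 0 in CD44Neg (at least 105-fold and 36.9-fold higher, adjusted p = 0.00142 and 9.2e-04). *Itgb3* rose as well (50.6 against 1.08, 5.53, SE 1.08, adjusted p = 0.00212). In CD44High against CD44Neg, 9 of the 17 rose and 1 fell, against 7.14% and 7.25%. *Itgam*, the CD11b subunit, rose (36.1 against 0.115, 8.06, SE 1.07, adjusted p = 4.5e-06), and *Itgb1*, the widely used beta subunit, fell (342 against 643, −0.90, SE 0.228, adjusted p = 0.00507).

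The profiles of the 10 genes over the 22 libraries were compared on centred log2 CPM (prior count of 2) by their mean absolute difference. *Dock2* and *Was* were nearest to each other (1.05 on the log2 scale), as were *Arhgdib* and *Lcp1* (1.06), and *Dock2* was the nearest member to *Rac2* (1.42), *Coro1a* (1.30), *Vav1* (1.18) and *Fermt3* (1.33). *Lcp1* was farthest from the mean profile of the 10 (1.83) and *Dock2* closest to it (0.706). Among the other genes of the 12949, *Spns3*, *Slc6a13*, *Tnni2*, *1810011H11Rik* and *5430427O19Rik* were most like that mean profile, at 0.545 to 0.603. All 5 were at 0 in CD44Neg, and *Spns3* had means of 3.86 ± 3.15 normalized CPM in CD44LoKitPos and 17.1 ± 8.33 in CD44High.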

How the data were processed

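VE-Cad+ cells were sorted 25 per library, amplified with SMART-Seq2 and sequenced. The authors clipped adaptors (FASTX), aligned (RNA STAR) and assigned reads to genes (htseq-count), and deposited raw counts without normalization. The submitters' processing notes name mm10, FastQC and HTSeq. The annotation, tool versions and strand setting are not given in the sources used here. Libraries were grouped by their labels, and all 22 columns were assigned.

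Tests ran in R 4.3.3 (edgeR 4.0.16, DESeq2 1.42.0) and descriptions in Python 3.11.15. Counts were filtered with filterByExpr (minimum count of 10, minimum total of 15), scaled by TMM and tested by the quasi-likelihood test of edgeR, Benjamini-Hochberg adjusted, and called at an adjusted p under 0.01. CD44LoKitNeg against CD44Neg used 16 libraries, the other population comparisons 1 fit of all 22, and the stage comparisons 1 fit of 6 groups (population by E9.5 and E10 together, or E11). SEs were derived from the F statistic. Lower bounds against a population at 0 used 3 counts in its library with the highest limit. All 10 members were named, as were all listed relatives, up to 3 called genes of each pathway list with the strongest change in each direction, and the 5 genes of most like profile, though not every one is printed for each comparison. The members and lists were chosen with earlier results of these data known. The alternatives were DESeq2's size factors, no filter, DESeq2's Wald test, a threshold of 0.05, stage as a covariate, stage-matched contrasts, all 22 libraries in the first fit, *Rn45s* left out of the totals, and each library left out. The scripts were tested on simulated data.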

Additional observations from a re-analysis of the deposited data

Results flagged for a closer look

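In 7 of 20 groups of libraries (the 10 genes in CD44Neg and in CD44LoKitNeg), 1 library stood far above the rest by Dixon's criterion, which flags about 1 in 20 groups by chance for values without ties. In several of these groups most libraries were at 0 counts, where a single count is enough to meet it, so that rate does not hold for them. *Rac2* was at 1.24 normalized CPM in CD44LoKitNeg replicate 16 and at 0 in the other 5. *Dock2* was at 6.66 in CD44LoKitNeg replicate 15, against 0 to 1.66 in the others. *Rhoh* was at 22.3 in CD44LoKitNeg replicate 12, against 0 to 6.76, and at 13.3 in CD44Neg replicate 3, against 0 to 6.37. *Was* was at 2.65 in CD44Neg replicate 3 and at 0 in the other 9. *Fermt3* was at 4.88 in CD44Neg replicate 4, against 0 to 1.83. *Arhgdib*, which was counted throughout, was at 229 in CD44Neg replicate 6, against 67.9 to 128 in the other 9.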

How the results depend on the processing

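No paired analysis was possible because the groups share no replicate numbers. Of 467 log2 fold changes recomputed under other settings, 433 kept their sign and side of the threshold, as did 1837 of 1912 with 1 library left out. The cause of the changes below was not tested. Among members called higher, CD44LoKitNeg against CD44Neg gave 2 with stage-matched contrasts and 1 in the fit of 22 libraries. CD44LoKitPos against CD44LoKitNeg gave 5 at 0.05 and 1 stage-matched (1 to 4 with 1 library left out), CD44High against CD44LoKitPos 2 at 0.05 and 2 with stage as a covariate, and CD44High against CD44Neg 5 stage-matched. CD44High and CD44LoKitPos share no stage, so that the E11 term of that covariate rests on the CD44Neg and CD44LoKitNeg libraries. At E9.5 and E10, CD44LoKitNeg against CD44Neg gave 1 higher with DESeq2's Wald test and 1 lower at 0.05 (0 to 2 higher with 1 library left out), and at E11 0 to 2 lower with 1 left out. CD44LoKitNeg at E11 against earlier gave 1 lower without the filter, 1 with DESeq2's Wald test and 2 at 0.05 (0 to 1 with 1 library left out), and the stage dependence 0 to 1 lower. Signs reversed for *Vav1* in CD44LoKitNeg against CD44Neg (−1.07 with stage as a covariate, −2.20 stage-matched) and, with stage as a covariate, for *Rhoh* (−0.82) and *Was* (−0.9996) in CD44High against CD44LoKitPos. With 1 library left out, *Vav1* ranged from −0.81 to 0.27 in CD44LoKitNeg against CD44Neg, *Rhoh* from −1.17 to 1.14 in CD44LoKitPos against CD44LoKitNeg, and *Was* from −0.066 to 0.70 in CD44High against CD44LoKitPos. At E11, CD44LoKitNeg against CD44Neg ranged from −0.32 to 0.073 for *Arhgdib* and from −0.093 to 6.18 for *Was*. CD44LoKitNeg at E11 against earlier ranged from −0.22 to 0.19 for *Lcp1*, −1.09 to 0.75 for *Fermt3* and −0.85 to 0.18 for *Hcls1*, and the stage dependence from −0.98 to 8.09 for *Rhoh* and −0.42 to 2.13 for *Fermt3*. Leaving *Rn45s* (1.92% to 23.9% of counts) out of the totals raised *Was* in CD44High to 37.2 normalized CPM and *Arhgdib* to 513 in CD44LoKitPos and 1234 in CD44High. Over all genes, stage matching lowered the calls in CD44LoKitPos against CD44LoKitNeg from 552 to 64, and leaving out CD44LoKitPos replicate 17 lowered them to 65. Leaving out 1 library also lowered them from 285 to 47 in CD44LoKitNeg against CD44Neg at E9.5 and E10 (CD44LoKitNeg replicate 15), from 374 to 143 at E11 (CD44Neg replicate 1), from 156 to 43 between stages of CD44LoKitNeg (CD44LoKitNeg replicate 14), from 451 to 159 in CD44LoKitPos against CD44Neg (CD44LoKitPos replicate 18), and, without CD44High replicate 22, from 390 to 251 in CD44High against CD44LoKitPos and from 2067 to 1334 against CD44LoKitNeg. The stage dependence, with 11 calls, ranged from 6 to 21. Without length scaling, an alternative chosen after seeing the data, 5 of 36 shares moved by more than 1 SD, and *Rac2* took 48.3% in CD44High. Low counts limit *Rac2*, *Dock2*, *Vav1*, *Was* and *Rhoh* in the endothelial libraries. Lower bounds with 1 library left out were also chosen after seeing the data. The medians within stages with genes at their bounds were chosen after seeing the data too, and over all 10 fitted values they were 1.76 at E9.5 and E10 and −0.060 at E11.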
